A study of Mus musculus with 2 samples.

Results

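Gas5 is a mouse long non-coding RNA gene that carries 9 small nucleolar RNAs (snoRNAs) in its introns, and the fragments of the gene are described here across the nucleus and the cytoplasm of dendritic cells. A sequence was counted as a Gas5 fragment when it matched, on the sense strand, an annotated transcript of Gas5 or of a snoRNA or microRNA gene lying inside it. Of 538100 distinct sequences in the table, 328 met this rule, 282 of them over their full length and the rest once at most 3 bases were dropped from the 3′ end. The nuclear library held 301 of them and the cytoplasmic library 58. The gene was selected on the nuclear over cytoplasmic read ratios of its snoRNAs, so their ratios are a description and carry no test.

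The material was bone marrow-derived dendritic cells of C57BL/6 mice, grown for 7 days with GM-CSF plus IL-4, cytokines that drive dendritic cell growth, and exposed to lipopolysaccharide (LPS), a component of bacterial outer membranes. The nuclear library came from the pellet that held the nuclei after swelling in a buffer containing the detergent NP40, and the cytoplasmic library came from the other fraction. All material in both libraries had the same strain, culture and LPS stimulation, and there were no unstimulated cells. With 1 library per fraction, the intervals given are exact 95% intervals that cover counting error only, and the spread between cultures is unknown.

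C/D box snoRNAs are short RNAs that guide ribose methylation of ribosomal RNA in the nucleolus. They are named for a box C near the 5′ end and a box D near the 3′ end, which bind the core proteins of the particle, and most mammalian ones are cut out of introns after splicing. Gas5 is a known host of such snoRNAs. Its spliced exon RNA leaves the nucleus, holds only short reading frames and is degraded by nonsense-mediated decay, which couples its level to translation.

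The gene (ENSMUSG00000053332) spans chr1:161034422-161038539 on the plus strand of GRCm38, the assembly also called mm10. GENCODE lists 25 transcripts of it, 20 of them as retained introns and 5 as spliced. The spliced transcript used as reference has 12 exons and 11 introns. In host order, Gm26224 lies in intron 1, Gm22489 in intron 2, Gm22357 in intron 3, Gm23212 in intron 5, Snord78 in intron 6, Mir5117 in intron 8, Snord80 in intron 9, Snord47 in intron 10 and Gm25789 in intron 11. Introns 4 and 7 hold no annotated snoRNA. Mir5117 bears a microRNA name but is typed as a snoRNA in GENCODE, and the RefSeq gene table (GRCm38.p6) lists the name as a synonym of Gas5 itself. Snord80 has 2 gene identifiers over the same bases and was treated as 1 snoRNA. In 7 of the 9 the annotated 3′ end lay 65 to 78 nt before the next exon, while Gm26224 lay 278 nt and Snord80 313 nt before it.

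**Figure D1:**
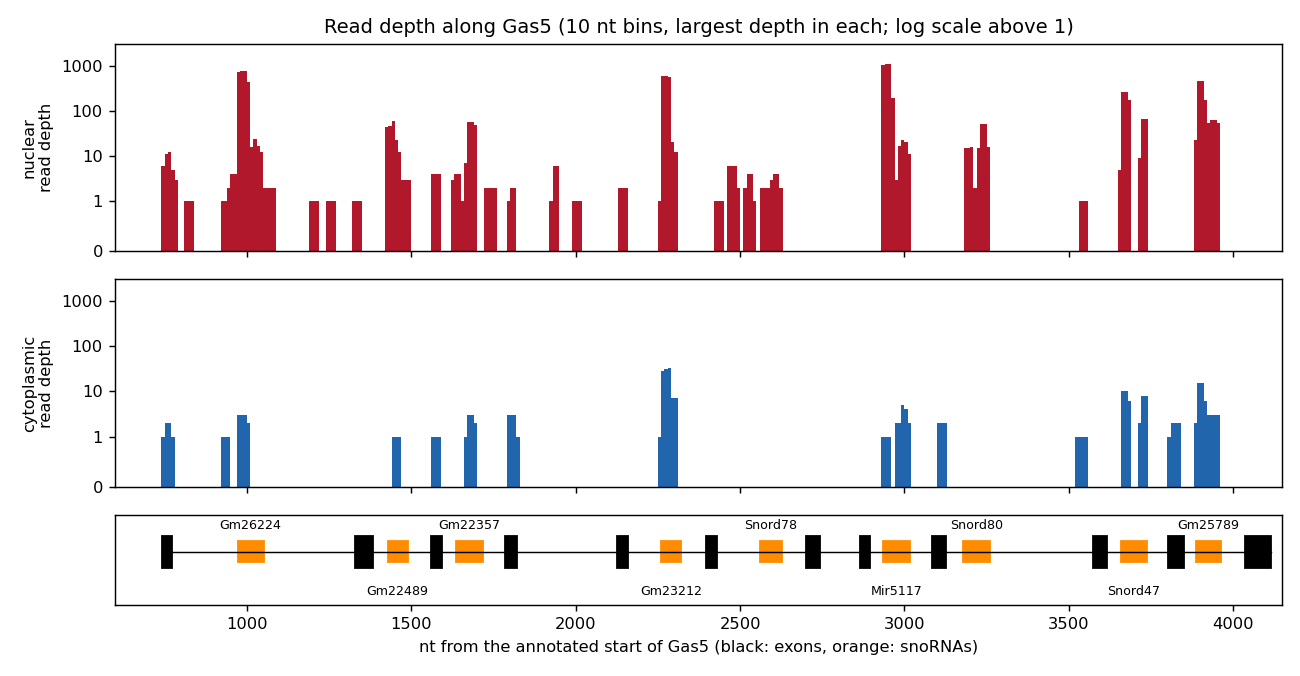
Map of the Gas5 host gene with its exons and snoRNAs along the distance from the annotated start (nt), and the largest read depth in each bin of 10 nt in the nuclear and in the cytoplasmic library, on an axis that is logarithmic above 1 read. Most reads stand in narrow peaks over the snoRNAs in both libraries, and the exons between them hold few.

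The sequences below show where on each snoRNA the commonest nuclear fragment lay, since the position of the fragments was shared by several members. Each is the whole annotated snoRNA from the GENCODE vM21 transcripts, 5′ to 3′, with the commonest nuclear fragment in capitals. The first lies at chr1:161035394-161035473 and the last at chr1:161038308-161038383, all on the plus strand.
Gm26224: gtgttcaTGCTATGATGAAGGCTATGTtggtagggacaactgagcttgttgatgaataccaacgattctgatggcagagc
Gm22489: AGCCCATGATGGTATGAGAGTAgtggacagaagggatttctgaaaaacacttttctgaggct
Gm22357: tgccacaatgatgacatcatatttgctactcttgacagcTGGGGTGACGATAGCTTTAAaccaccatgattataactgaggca
Gm23212: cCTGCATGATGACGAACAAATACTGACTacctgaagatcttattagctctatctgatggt
Mir5117: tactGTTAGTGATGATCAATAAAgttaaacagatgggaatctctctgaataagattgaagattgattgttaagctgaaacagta
Snord80: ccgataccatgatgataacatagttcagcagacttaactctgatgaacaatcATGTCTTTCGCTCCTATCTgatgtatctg
Snord47: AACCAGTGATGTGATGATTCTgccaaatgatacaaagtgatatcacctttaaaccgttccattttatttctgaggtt
Gm25789: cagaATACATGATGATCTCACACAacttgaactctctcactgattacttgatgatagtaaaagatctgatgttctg
Snord78 is not shown, because its 6 fragments were 6 different sequences of 1 read each. The capitals begin within the first 8 nt in 6 of the 8 snoRNAs and lie further along in Gm22357 and Snord80.

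The nuclear library held 3410 reads of the Gas5 snoRNAs, or 1705 RPM (reads scaled to one total per library), and the cytoplasmic library held 76 reads, or 37.2 RPM. The ratio of RPM was 45.8 (95% interval 36.5 to 58.3). Library totals were alike, with 2000019 nuclear and 2041383 cytoplasmic reads, and 1 nuclear read was worth 0.5 RPM, 1 cytoplasmic read 0.490 RPM. An RNA was called higher when it was at least 2-fold higher, the interval excluded 1 and both libraries together held at least 50 reads. By this rule 8 of the 9 snoRNAs were called higher in the nuclear library and 0 lower, while Snord78 stayed under the minimum. The same rule called 40.7% of 937 small RNAs higher and 11.3% lower, and it called 98.2% of 110 snoRNAs outside Gas5 higher and 0% lower. The median log2 ratio was 4.84 over the 9 Gas5 snoRNAs, 4.80 over the other snoRNAs and 0.62 over all small RNAs. These medians use a pseudocount of 0.5 reads added to each count. Without it, and with snoRNAs absent from the cytoplasm at their lower bound, the Gas5 median was 4.58. RPM is relative to each library's own total, of which microRNAs made up 40.5% in the nuclear and 74.8% in the cytoplasmic library. A ratio of RPM is thus not the split of an RNA's molecules within a cell, and bulk RNA gives no value per cell.

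The point ratios differed more than 10-fold among the snoRNAs of the 1 gene. The facing interval limits of the highest and the lowest, 89.0 for Gm26224 and 26.1 for Gm23212, lie closer together. Gm26224, the first snoRNA of the host, had 767 reads (383.5 RPM) in the nuclear library, against 3 reads (1.47 RPM) in the cytoplasmic library, a ratio of 261 (89.0 to 1268). Mir5117, in intron 8, had 1081 reads (540.5 RPM) in the nuclear library and 6 reads (2.94 RPM) in the cytoplasmic library, a ratio of 184 (84.2 to 502). By log2 ratio with a pseudocount of 0.5 reads, they ranked 2 and 5 among the 118 snoRNAs with at least 50 reads. Snord80 had 68 reads (34 RPM) in the nuclear library and 0 in the cytoplasmic library, which makes it at least 23.1-fold higher when the cytoplasm is set at a floor of 3 reads. The exact lower 95% limit of its ratio, which takes in the counting error of both libraries, was 18.3.

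Gm23212 and Gm22357 stood at the low end. Gm23212, in intron 5, had 596 reads (298.0 RPM) in the nuclear library, against 34 reads (16.7 RPM) in the cytoplasmic library, a ratio of 17.9 (12.7 to 26.1). Gm22357, in intron 3, had 57 reads (28.5 RPM) in the nuclear library and 3 reads (1.47 RPM) in the cytoplasmic library, a ratio of 19.4 (6.31 to 96.8). The interval of Gm23212 did not overlap those of Gm26224 and Mir5117, although all 3 come from introns of the same host and each had at least 596 nuclear reads. By log2 ratio with the pseudocount, Gm23212 at 4.14 ranked 84 and Gm22357 at 4.07 ranked 87 among the 118 snoRNAs, the reverse of the order of their plain ratios.

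The other members lay between these. Gm25789, the last snoRNA of the host, had 518 reads (259.0 RPM) in the nuclear library and 18 reads (8.82 RPM) in the cytoplasmic library, a ratio of 29.4 (18.4 to 49.96). Snord47, in intron 10, had 258 reads (129.0 RPM) in the nuclear library and 11 reads (5.39 RPM) in the cytoplasmic library, a ratio of 23.9 (13.2 to 48.6). Gm22489, in intron 2, had 59 reads (29.5 RPM) in the nuclear library and 1 read (0.490 RPM) in the cytoplasmic library, a ratio of 60.2 (10.4 to 2418). The intervals of Gm25789, Snord47, Gm23212, Gm22357 and Gm22489 all overlap, so their order is not resolved at this depth. The wide intervals of Gm22489 and Gm22357 also reach into those of Gm26224 and Mir5117. Snord78, in intron 6, had 6 reads (3 RPM) in the nuclear library and 0 in the cytoplasmic library, which is too few to place it.

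**Figure D2:**
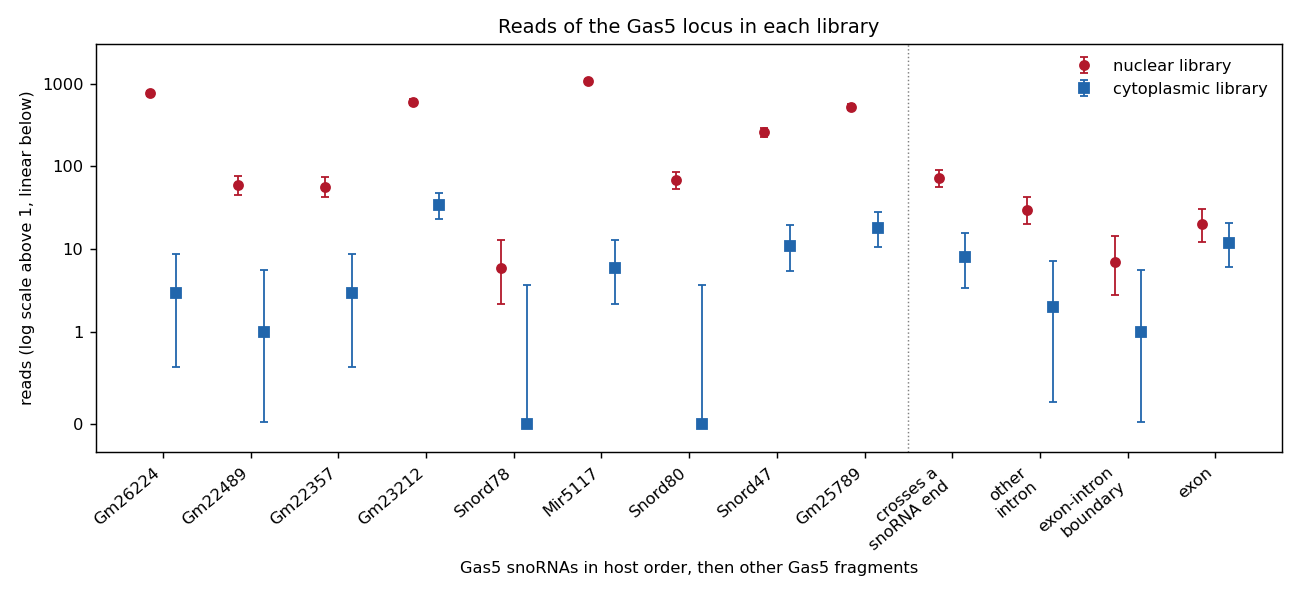
Reads of each Gas5 snoRNA and of the other fragments of the locus in the nuclear and the cytoplasmic library, on an axis that is logarithmic above its lowest step, with exact Poisson 95% intervals as bars. Every snoRNA with at least 50 reads sits higher in the nuclear library, and Gm23212 has the most cytoplasmic reads, 34.

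**Figure D3:**
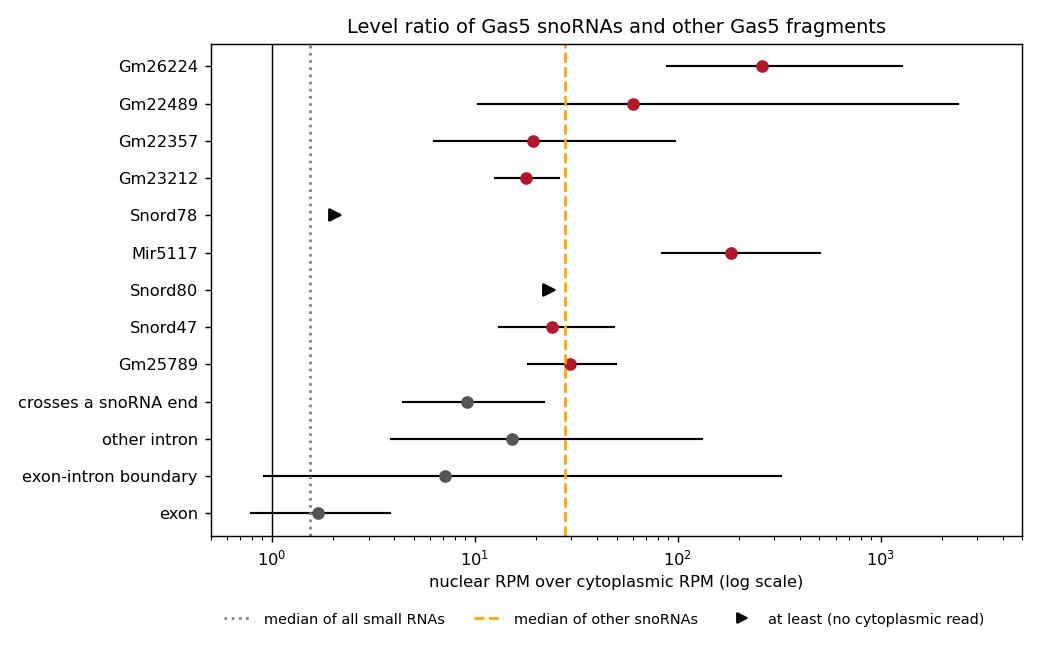
Nuclear over cytoplasmic ratio of RPM for each Gas5 snoRNA and fragment class on a log axis, with 95% intervals as bars an arrow where only a lower bound exists, a solid line at 1 and broken lines at the medians of all small RNAs and of other snoRNAs. Gm26224 and Mir5117 lie highest at 261 and 184, and the exon fragments lie lowest at 1.70 with an interval that includes 1.

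The make-up of the Gas5 snoRNA pool, which does not depend on how the libraries are scaled, also differed between the fractions. Mir5117 gave 31.7% (30.1 to 33.3%) of the Gas5 snoRNA reads in the nuclear library and 7.89% (2.95 to 16.4%) in the cytoplasmic library. Gm26224 gave 22.5% (21.1 to 23.9%) in the nuclear library and 3.95% (0.822 to 11.1%) in the cytoplasmic library. Gm23212 went the other way, with 17.5% (16.2 to 18.8%) in the nuclear library and 44.7% (33.3 to 56.6%) in the cytoplasmic library. For each of these 3 the intervals of the fractions did not overlap. Gm25789 gave 15.2% (14.0 to 16.4%) in the nuclear library and 23.7% (14.7 to 34.8%) in the cytoplasmic library, and Snord47 gave 7.57% (6.70 to 8.51%) in the nuclear library and 14.5% (7.45 to 24.4%) in the cytoplasmic library. These intervals overlap, as do those of the less abundant snoRNAs. The Gas5 snoRNAs together made up 1.89% (1.83 to 1.95%) of all snoRNA reads in the nuclear library and 1.29% (1.02 to 1.61%) in the cytoplasmic library.

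Per nt of annotated length, the nuclear levels spanned 142-fold within the gene. Mir5117 had the highest nuclear level, 12.9 reads per nt, followed by Gm23212 with 9.93 and Gm26224 with 9.59 reads per nt, whose counting intervals overlap. Gm25789 followed with 6.82 and Snord47 with 3.35 reads per nt, each apart from its neighbours. Gm22489 with 0.952, Snord80 with 0.840 and Gm22357 with 0.687 reads per nt overlap in their intervals, and Snord78 came last with 0.0909 reads per nt. Thus neighbouring introns held snoRNAs of unlike level, as in introns 5 and 6, or 8 and 9. In the cytoplasmic library Gm23212 led with 0.567 reads per nt, followed by Gm25789 with 0.237 and Snord47 with 0.143 reads per nt, while Mir5117 had 0.0714 and Gm26224 had 0.0375 reads per nt. These levels count fragments of at least 18 nt. No Gas5 sequence was longer than 30 nt, so intact snoRNAs, of 60 to 84 nt, were not among the sequences counted.

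Exon fragments of Gas5 were few and did not share the distribution of the snoRNAs. The nuclear library held 20 reads (10 RPM) of Gas5 exons and the cytoplasmic library held 12 reads (5.88 RPM), a ratio of 1.70 (0.792 to 3.82) whose interval includes 1. This interval lies wholly below that of the snoRNAs together, 36.5 to 58.3. Both libraries together held fewer exon reads than the minimum of 50, so no call was made. Exon reads took 0.565% (0.346 to 0.872%) of the reads of the locus in the nuclear library and 12.1% (6.42 to 20.2%) in the cytoplasmic library. Reads within annotated snoRNAs took 96.4% (95.7 to 97.0%) in the nuclear library and 76.8% (67.2 to 84.7%) in the cytoplasmic library.

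Among the exon reads, 4 nuclear and 3 cytoplasmic reads crossed a splice junction, and 16 nuclear and 9 cytoplasmic reads lay within 1 exon. Reads from unspliced RNA, which ran across an exon-intron boundary, numbered 7 in the nuclear library and 1 in the cytoplasmic library. Exon 1 had the most reads within an exon in the nuclear library, 8, against 1 in the cytoplasmic library. The fragment below, at chr1:161035166-161035183, came from that exon and was found in both libraries, with 2 nuclear reads and 1 cytoplasmic read, and is shown in capitals over its whole length.
Gas5 exon 1 fragment: CTTTCGGAGCTGTGCGGC
Leaving out reads across splice junctions, exons 9 and 11 had 0 nuclear reads and 2 cytoplasmic reads each, and exon 12, the longest at 81 nt, had 0 in both libraries. At these counts no exon can be said to differ from another.

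Intron sequence outside the annotated snoRNAs gave 30 reads (15 RPM) in the nuclear library and 2 reads (0.980 RPM) in the cytoplasmic library, a ratio of 15.3 (3.89 to 132). That interval lies above the ratio of the exon fragments and overlaps that of the snoRNAs. Introns 1 and 6 held 10 such nuclear reads each, against 1 cytoplasmic read in intron 1 and 0 in intron 6. Intron 6 thus had 10 nuclear reads outside Snord78 and 6 within it, but Snord78 takes up only 66 of its 271 nt. The counting interval of the 6 reads, 2.20 to 13.1, includes 10. Intron 4, which holds no annotated snoRNA, had 7 nuclear reads and 0 cytoplasmic reads, and 5 of the 7 were copies of the sequence below, at chr1:161036352-161036369, shown in capitals over its whole length.
Gas5 intron 4 fragment: CAATTGTAGATAGAGGAG
Intron 7, the other intron without an annotated snoRNA, had 0 reads in both libraries.

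A further 72 nuclear and 8 cytoplasmic reads crossed an annotated snoRNA end, a ratio of 9.19 (4.42 to 22.1). Most were copies of a 3′ fragment of Snord47 at chr1:161038142-161038159, with 57 nuclear and 6 cytoplasmic reads, which ran 1 nt past the GENCODE end and is shown in capitals over its whole length.
Snord47 3′ fragment: ATTTTATTTCTGAGGTTA
RefSeq places Snord47 at chr1:161038092-161038156, so the annotations differ at both ends. With the crossing reads counted in, Snord47 had a ratio of 18.3 (11.4 to 31.3), within the interval given above.

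The nuclear fragments of most Gas5 snoRNAs shared a start. In Gm26224, 735 of 767 nuclear reads (95.8%) began at nt 8 of the annotated snoRNA, as did all 3 cytoplasmic reads. In Mir5117, 1037 of 1081 nuclear reads (95.9%) began at nt 5, against 1 of 6 cytoplasmic reads. The other 5 cytoplasmic reads of Mir5117 were centred past the middle of the snoRNA, where 23 nuclear reads lay. In Gm25789, 83.6% of nuclear reads began at nt 5, as did 13 of 18 cytoplasmic reads. Snord47 had 71.3% of its nuclear reads and 7 of 11 cytoplasmic reads starting at nt 1.

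Starts were less uniform in the others. Gm22489 had 54.2% of its nuclear reads starting at nt 1, and Gm23212 had 43.6% starting at nt 2, with 15 of 34 cytoplasmic reads there. Gm23212 was set apart by its 3′ ends, since 507 of 596 nuclear and 22 of 34 cytoplasmic reads ended within 2 nt after an internal CTGA, the letters of box D. Nuclear 3′ ends fell on 20 positions in Gm26224 and on 21 in Mir5117, whose starts were nearly uniform. Both remaining members with at least 50 reads had their fragments elsewhere, namely Gm22357, with 68.4% of nuclear reads starting at nt 40, and Snord80, with 39.7% starting at nt 53. Over all Gas5 snoRNAs, 93.2% (92.3 to 94.0%) of nuclear reads and 80.3% (69.5 to 88.5%) of cytoplasmic reads were centred before the snoRNA's midpoint. Reads crossing a snoRNA end are left out of these shares and of the starts above.

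**Figure D4:**
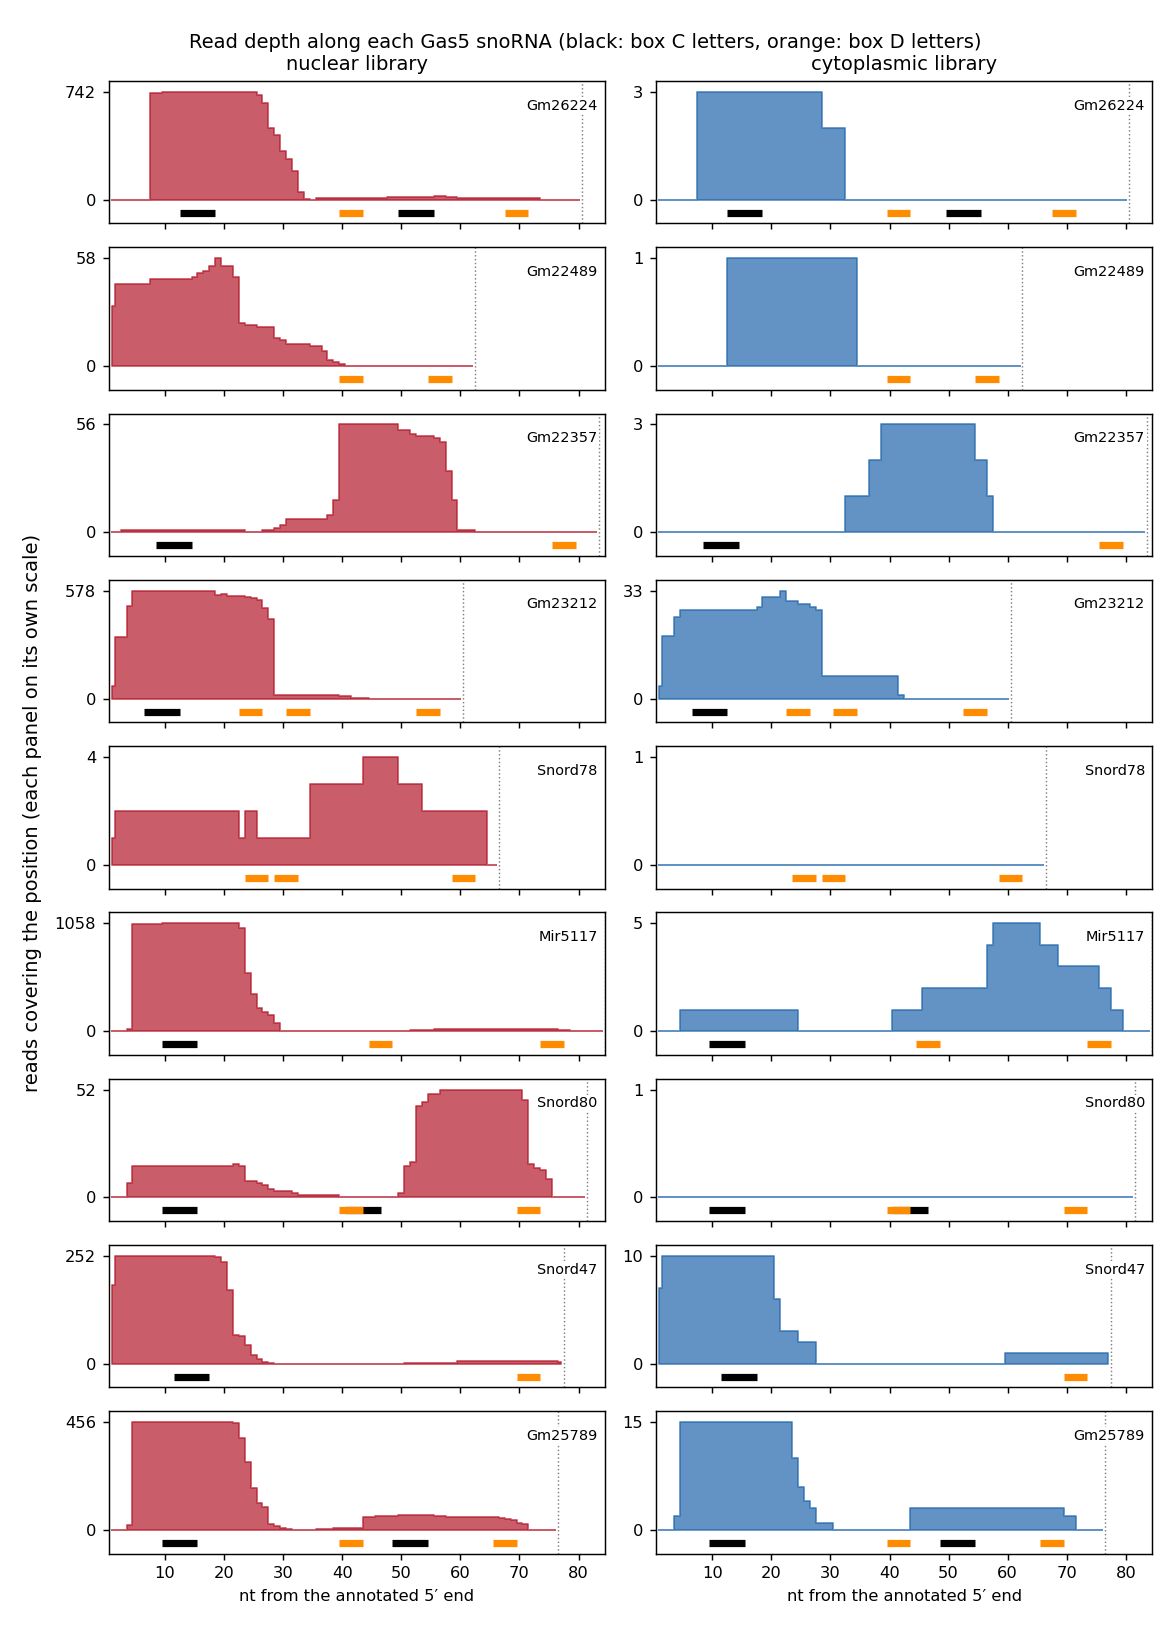
Reads covering each nt of the 9 Gas5 snoRNAs in the nuclear library (left) and the cytoplasmic library (right), each panel on its own scale, with marks for the letters of box C and box D and a dotted line at the annotated end. Reads pile up near the 5′ end in most snoRNAs, past the middle in Gm22357 and Snord80, and the 5 cytoplasmic reads past the middle in Mir5117 are visible. Reads crossing a snoRNA end are left out.

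The commonest starts were set against the letters of box C. A pair of motifs was searched on the transcript strand alone, TGATGA for box C in the first 25 nt and CTGA for box D in the last 25 nt. The motifs may overlap, since both contain TGA. TGATGA was found in 7 of the 9 Gas5 snoRNAs, and CTGA in all 9. Among all 1507 annotated mouse snoRNA transcripts, 21.8% had TGATGA in that window, 57.5% had CTGA and 20.7% had both. These transcripts were not limited to C/D box snoRNAs, so the shares are no measure of what is particular to Gas5. Gm22489 and Snord78 lacked TGATGA there but had its first 5 letters, TGATG, from nt 7. In Snord47 TGATG also came first, from nt 7, and TGATGA followed from nt 12. The commonest nuclear start lay 5 nt before the first TGATG in Gm26224, Gm23212, Mir5117 and Gm25789 and 6 nt before it in Gm22489 and Snord47. The commonest fragments of Gm22357 and Snord80 began after it, and Snord78 had no commonest fragment. Fragments holding TGATGA anywhere were 93.3% (92.4 to 94.1%) of nuclear and 77.6% (66.6 to 86.4%) of cytoplasmic Gas5 snoRNA reads. These shares are not limited to the window of 25 nt. They take in fragments over a second TGATGA, from nt 50 in Gm26224 and from nt 49 in Gm25789. A match of letters is a description and does not show that a protein was bound.

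The side of the snoRNA that the fragments covered was also set beside that of other snoRNAs. The median share of nuclear reads centred before the midpoint was 97.2% over the 8 Gas5 snoRNAs with at least 50 reads, against 69.2% over the 110 others. The share was above 80% in 6 of the 8 Gas5 snoRNAs and in 45 of the 110 others. For Gas5, reads crossing a snoRNA end are left out of it. Snord47, 1 of the 6 at 97.7% of 258 nuclear reads, had a 3′ crossing sequence with 57 further nuclear reads. Its place among the 6 depends on leaving crossing reads out. Of these others, 52 had TGATGA in the first 25 nt, and their median share was 93.7%, with 33 of them above 80%. The Gas5 median stood close to that of other snoRNAs with the same letters, and no difference was tested.

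The lengths of the fragments were spread over 18 to 30 nt. The median was 21 nt in the nuclear and 23 nt in the cytoplasmic library. In the nuclear library 19 nt (19.3% of reads), 20 nt (18.8%) and 25 nt (13.0%) were commonest, and in the cytoplasmic library 20 nt (22.4%) and 27 nt (15.8%). Among nuclear reads 7.24% had 27 nt or more, against 19.7% among cytoplasmic reads. Gm23212, whose commonest fragment in both libraries had 27 nt, gave a larger share of the cytoplasmic reads. Of 263 distinct snoRNA sequences, 28 were in both libraries, which is 11.2% of the nuclear and 68.3% of the cytoplasmic ones. Over the whole table, the nuclear library held 400087 and the cytoplasmic library 169208 of the 538100 distinct sequences. The nuclear library was thus richer in distinct sequences in general, and the overlap is not read as particular to Gas5.

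**Figure D5:**
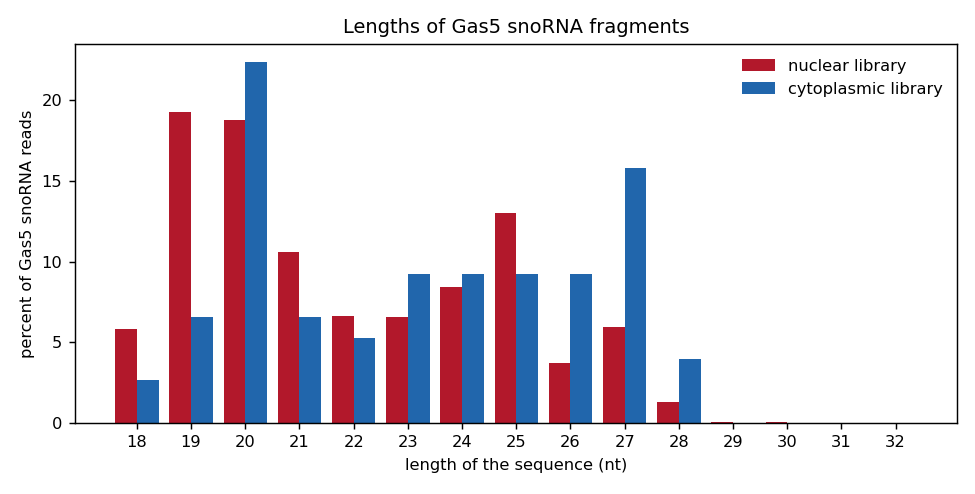
Percent of Gas5 snoRNA reads by sequence length (nt) in the nuclear library (3410 reads) and the cytoplasmic library (76 reads). Nuclear reads stand highest at 19 and 20 nt, and cytoplasmic reads at 20 and 27 nt.

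A similar contrast between snoRNAs and host exons was seen in most protein-coding host genes with enough reads. Hspa8, which encodes a heat shock cognate chaperone and carries 3 snoRNAs, had 77398 nuclear and 1397 cytoplasmic snoRNA reads, a ratio of 56.6 (53.6 to 59.7). Its exons gave 77 nuclear and 85 cytoplasmic reads, a ratio of 0.925 (0.670 to 1.27). Eef2, a translation elongation factor gene with 1 snoRNA, had 2782 nuclear and 4 cytoplasmic snoRNA reads, a ratio of 709.9 (276.9 to 2607), and its exons gave 78 nuclear and 85 cytoplasmic reads, a ratio of 0.937 (0.680 to 1.29). Snhg1, a non-coding host with 8 snoRNAs, had 12169 nuclear and 552 cytoplasmic snoRNA reads, a ratio of 22.5 (20.7 to 24.6), but only 4 nuclear reads and 1 cytoplasmic read of exons. Over the 9 other hosts with at least 50 reads of both kinds, the snoRNA log2 ratio was above the exon log2 ratio in 8, with medians of 4.92 and 0.38. The exception was Rabggtb, with 124 nuclear and 0 cytoplasmic exon reads. All 9 are protein-coding, unlike Gas5, and no non-coding host in the list had 50 reads of both kinds. Among non-coding hosts, exons gave 65 nuclear and 5 cytoplasmic reads in Dancr, a ratio of 13.3 (5.40 to 42.2). They gave 22 and 0 in Snhg8, and 9 and 6 in Zfas1, a ratio of 1.53 (0.487 to 5.23). Whether non-coding hosts share the contrast is not resolved at these counts.

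Among exon fragments of 39 listed snoRNA host genes, 10 had at least 50 reads, of which 5 were called higher in the nuclear library and 0 lower, beside 40.7% and 11.3% of all small RNAs. Their median log2 ratio was 0.72, against 0.62 over all small RNAs, and the highest was 7.99 in Rabggtb. Of 10 listed genes for C/D box particle and assembly proteins, 0 reached the minimum, with 43 nuclear and 13 cytoplasmic reads in all. Of 8 nonsense-mediated decay factors, Smg1, a kinase of the pathway, alone reached it, with 47 nuclear and 30 cytoplasmic reads and a ratio of 1.60 (0.990 to 2.62). At this depth the level of these factors could not be set beside the Gas5 exon reads.

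Long RNAs known to stay in the nucleus were measured as well. Fragments of Neat1, the scaffold RNA of paraspeckles, had 1262 nuclear and 85 cytoplasmic reads, a ratio of 15.2 (12.2 to 19.1). Malat1, a nuclear speckle RNA, had 1798 nuclear and 305 cytoplasmic reads, a ratio of 6.02 (5.33 to 6.82), and Xist had a ratio of 5.69 (4.18 to 7.87). All 4 listed long nuclear RNAs were measured and 3 were called higher, beside 40.7% of all small RNAs, Rn7sk being below 2-fold with 1461 nuclear and 914 cytoplasmic reads. The snoRNAs nearest to the Gas5 snoRNAs together (log2 ratio 5.51) were Gm26205 with a log2 ratio of 5.48, Gm23451 with 5.58 and Snord23 with 5.41, over these 2 libraries alone. The entries annotated as long non-coding RNA nearest to the Gas5 exons (log2 ratio 0.74) were Gm42418 with 0.82, Gm29371 with 1.08 and Gm15564 with 1.17. Gm42418 alone held 50623 of the 64619 nuclear and 29363 of the 31456 cytoplasmic exon reads of that class. Whether its reads come from another RNA was not tested.

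The 10 markers of dendritic and myeloid cells were all found in both libraries, with 17010 nuclear and 16969 cytoplasmic reads in all. Markers of epithelial and lymphoid cells were at 0 in both. Of the 3 stromal markers, 3 were seen in the nuclear library with 79 reads and 2 in the cytoplasmic library with 6 reads, and of the 2 liver markers 1 was seen in each, with 287 nuclear and 24 cytoplasmic reads. Red cell markers had 0 nuclear and 2 cytoplasmic reads. The part of other cells in the Gas5 ratios was not tested. Scaling with TMM factors shifted every log2 ratio by -0.47, scaling by the median of ratios by -0.58 and scaling to the microRNA total by 0.88. These shifts are smaller than the log2 ratio of any Gas5 snoRNA, so they could not reverse a Gas5 snoRNA direction. With the microRNA total the Gas5 exon ratio was 3.14 (1.46 to 7.05), and its interval then excluded 1.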

How the data were processed

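Small RNAs of the nuclear and the cytoplasmic fraction were sequenced in 1 library each. The authors' deposited table lists distinct sequences with a value in RPM per library. The submitters' processing notes name CASAVA and the build mm10. How adapters were trimmed, lengths limited and reads aligned is not given in the sources used here. Column names differ in their last letter, read here as N for nuclear and C for cytoplasmic.

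Whole reads were recovered from the RPM values. In both columns 100% of values came out whole within 0.1 read. The 2 libraries left 0 residual degrees of freedom, so a count model could not be fitted to these reads and no genes were called by one. No p-values are given. Replicate spread is unknown.

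Sequences were matched without mismatch on the sense strand to GENCODE vM21 transcripts. Those unmatched were matched to small RNAs with at most 3 bases dropped from the 3′ end and 18 nt or more remaining. The genome outside transcripts was not matched here. No Gas5 sequence matched a gene outside the locus. A sequence within a snoRNA was assigned to it, and those crossing a snoRNA end or an exon-intron boundary formed classes of their own.

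Ratios are nuclear over cytoplasmic RPM with exact intervals (Clopper-Pearson, conditional on the reads of both libraries). Shares have Clopper-Pearson intervals, and log2 ratios have a pseudocount of 0.5 reads. A count of 0 was set at 3 reads for a lower bound. Python 3.11.15, scipy 1.17.1 and R 4.3.3 were used, with edgeR 4.0.16 for TMM factors alone. The call was tested on simulated data. The alternatives were other scalings, thresholds and matching, and ways of counting sequences.

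The members and lists were chosen with earlier results of these data known. Genes named outside the locus are the 3 nearest entries in log2 ratio, the extreme members of each list, and hosts chosen after their values were seen. The lowest member of the host gene list is not reported here.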

Additional observations from a re-analysis of the deposited data

How the results depend on the processing

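No paired analysis was possible because each fraction had 1 library, and no library could be left out. Over 67 alternative values of single Gas5 snoRNA ratios, 67 had a log2 ratio above 0 and 50 stayed within the main interval. The other scalings could not have changed a direction. They shifted log2 ratios by -0.58 at the lowest, and the lowest main log2 ratio was 3.73, in Snord78. The lowest alternative log2 ratio, 1.61, was that of Snord78 on its most abundant sequence. Snord78 had 1 nuclear and 0 cytoplasmic reads there, so this value rests on the pseudocount. The ratio of all Gas5 snoRNAs, 45.8, was 33.1 with TMM factors, 30.6 with the median of ratios, 84.6 with the microRNA total and 6.22 when each distinct sequence was counted once. Ratios and calls on distinct sequences were still scaled by the read totals. They were not corrected for the 400087 distinct sequences of the nuclear library against 169208 of the cytoplasmic library. The median log2 ratio of the Gas5 snoRNAs, 4.84, was 4.26 with the median of ratios and 5.72 with the microRNA total. Of the 8 snoRNAs called higher, 5 reached the minimum of 50 on the most abundant sequence alone and 1 on distinct sequences. Each of these was called higher there, and both settings leave fewer counts. On the most abundant sequence alone the intron fragments had 5 nuclear and 0 cytoplasmic reads, a ratio of 1.70 against the floor of 3 reads with a lower limit of 0.935, so a difference was not detectable. The snoRNA share of the locus in the nuclear library, 96.4%, was 93.1% on the most abundant sequence alone, 83.1% on distinct sequences and 98.4% with reads that cross a snoRNA end, and in the cytoplasmic library, 76.8%, it was 84.9% with those reads. Counting reads across a snoRNA end or an exon-intron boundary with its neighbour was chosen after seeing the data, as was rescaling the median. With boundary reads counted as exon, the Gas5 exon ratio was 2.12 (1.06 to 4.48). Of 937 small RNAs, 381 were called higher and 106 lower. Over the same 937, these counts were 298 and 216 with TMM factors and 286 and 250 with the median of ratios. They were 577 and 28 with the microRNA total, 463 and 229 on the interval alone, and 243 and 25 at 4-fold. The number tested differed in the remaining settings. On the most abundant sequence alone, 101 of 274 small RNAs were called higher and 63 lower. On distinct sequences, 100 of 449 were called higher and 29 lower. With no minimum of reads, 2465 of 17315 were called higher and 221 lower. Cytoplasmic counts of 0 to 34 reads per snoRNA limit the precision, the Gas5 exons rest on 32 reads in all, and neither fraction was replicated.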

Other observations

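Fragments of Gas5 snoRNAs that matched only after bases were removed at the 3′ end numbered 46 distinct sequences, with 57 nuclear and 4 cytoplasmic reads. The removed bases were A alone in 14 of these sequences, with 27 nuclear reads and 1 cytoplasmic read. They were T alone in 8 sequences, with 7 nuclear reads and 1 cytoplasmic read. On the antisense strand of the locus, 1 sequence was found, with 2 nuclear and 0 cytoplasmic reads.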
